A study of Mus musculus with 6 samples.

Results

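The genes described here encode regulators of fatty acid use and mitochondrial growth in the heart: the peroxisome proliferator-activated receptors (Ppara, Ppard and Pparg), the PGC-1 coactivators (Ppargc1a and Ppargc1b), the oestrogen-related receptors (Esrra, Esrrb and Esrrg), nuclear respiratory factor 1 (Nrf1) and mitochondrial transcription factor A (Tfam). Every row of the deposited table whose gene symbol is exactly 1 of these 10 was selected by symbol, and rows that repeat an interval were taken once. This gave 103 of 213957 distinct regions. All 103 were peaks, short regions of enriched reads, of which the table holds 101221. Of the 10 genes, 9 had at least 1 peak, and Pparg had no row. Esrrg had 29 peaks, Esrrb 27, Ppard 22, Nrf1 8, Ppargc1b 7, Ppara 6 and Esrra 2, while Ppargc1a and Tfam had 1 each.

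The samples were ventricular tissue of male C57BL/6 mice, 3 libraries at postnatal day 14 (P14) and 3 at postnatal day 1 (P1), described by the submitters as biological replicates. The labels name no engineered allele, and they give no treatment. The sample labels name the left ventricle, while the collection protocol describes ventricles with the septum and without the atria. Whether a library came from 1 animal or from several is not given in the sources used here. Methylated DNA was captured from sonicated genomic DNA with a methyl-CpG binding domain and sequenced (MBD-seq), so each value counts captured fragments. Such a count depends on how many methylated CpG sites a fragment holds and is no methylation level of a site. In bulk tissue, a change within a cell type and a change in the mix of cell types cannot be told apart.

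PPARs are ligand-activated nuclear receptors that bind DNA with a retinoid X receptor and switch on genes of fatty acid uptake and oxidation. Oestrogen-related receptors are orphan nuclear receptors that, with PGC-1 coactivators, drive genes of respiration, and PGC-1 also acts through Nrf1, which activates nuclear genes of respiration and Tfam among them. After birth the heart moves from glucose and lactate to fatty acids as its main fuel, the setting in which these regulators are best known in this tissue.

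Replicates 1 to 3 held 21512072, 20027789 and 16284216 reads at P14, and 18505983, 17532547 and 18101856 reads at P1. Peaks took 31.32%, 18.38% and 16.98% of them at P14, and 11.57%, 13.38% and 12.57% at P1, with a median of 19 to 48 reads per peak at P14 and 14 to 15 at P1. P14 replicate 1 stood apart by its share in peaks, and P1 replicate 1 by 2385 peaks without a read. Values are therefore given as CPM, counts scaled to the same total (TMM-adjusted) over reads in peaks, and a log2 change, P14 over P1, compares a peak with other peaks. When libraries were scaled to the reads between peaks instead, the median log2 change of all peaks moved by 1.18. DNA capture gives no marker expression, so the labelled tissue could not be checked against its markers.

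None of the promoter windows of these genes lay in a peak, as far as the table covers them. RefSeq (GRCm38.p6) gave 16 windows of 300 bases, 250 before and 50 after a start, for 9 of the genes. Ppargc1b had no window, so its promoter was not examined. The only Ppargc1a window lies inside the span of that minus-strand gene, and no window covers the upstream end of the span at 52115853. Of the 16 windows, 0 overlapped a listed peak, against 7.59% of 32851 windows in the genome. The third Pparg window counts among the 16, although 199 of its 300 bases lie in an interval that was not analysed. Among all windows, 1.93% of those with 15 or more CpG overlapped a peak, against 16.5% of those with 5 to 14 CpG. Of the 16 windows, 10 had 15 or more CpG, and the median over all windows was 7. The 5 windows printed here show CpG-rich and CpG-poor starts side by side, with every CpG, the site that the capture protein binds when it is methylated, in capitals. The Ppara, Ppard and first Nrf1 windows have 30, 27 and 43 CpG, while the Ppargc1a window has 5 and that of the second Esrrb start 7. All are written 5′ to 3′ along the gene.
Ppara (chr15:85735526-85735825, plus strand): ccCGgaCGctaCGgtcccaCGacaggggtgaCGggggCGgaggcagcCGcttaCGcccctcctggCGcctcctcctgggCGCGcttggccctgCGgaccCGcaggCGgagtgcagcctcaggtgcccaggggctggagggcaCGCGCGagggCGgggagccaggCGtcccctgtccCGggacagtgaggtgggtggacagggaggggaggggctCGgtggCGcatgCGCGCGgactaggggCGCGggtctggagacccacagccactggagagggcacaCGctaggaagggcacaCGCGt
Ppard (chr17:28232504-28232803, plus strand): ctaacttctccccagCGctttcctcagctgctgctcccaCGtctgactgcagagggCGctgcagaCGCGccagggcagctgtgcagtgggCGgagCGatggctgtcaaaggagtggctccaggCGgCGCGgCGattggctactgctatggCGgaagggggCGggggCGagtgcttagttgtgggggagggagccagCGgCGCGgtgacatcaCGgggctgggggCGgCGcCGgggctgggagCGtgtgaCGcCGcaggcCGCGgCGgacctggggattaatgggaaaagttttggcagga
Ppargc1a (chr5:51567676-51567975, minus strand): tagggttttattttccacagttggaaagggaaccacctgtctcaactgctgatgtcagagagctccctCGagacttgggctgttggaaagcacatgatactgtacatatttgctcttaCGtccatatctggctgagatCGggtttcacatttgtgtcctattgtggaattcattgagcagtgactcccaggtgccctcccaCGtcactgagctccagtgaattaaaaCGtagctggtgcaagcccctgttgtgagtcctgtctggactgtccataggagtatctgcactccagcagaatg
Esrrb (chr12:86421394-86421693, plus strand): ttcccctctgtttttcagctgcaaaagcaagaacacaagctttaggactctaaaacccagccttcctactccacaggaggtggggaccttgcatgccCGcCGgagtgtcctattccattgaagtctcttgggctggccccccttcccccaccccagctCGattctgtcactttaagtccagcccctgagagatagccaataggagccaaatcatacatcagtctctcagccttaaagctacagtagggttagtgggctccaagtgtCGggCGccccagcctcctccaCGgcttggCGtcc
Nrf1 (chr6:30047738-30048037, plus strand): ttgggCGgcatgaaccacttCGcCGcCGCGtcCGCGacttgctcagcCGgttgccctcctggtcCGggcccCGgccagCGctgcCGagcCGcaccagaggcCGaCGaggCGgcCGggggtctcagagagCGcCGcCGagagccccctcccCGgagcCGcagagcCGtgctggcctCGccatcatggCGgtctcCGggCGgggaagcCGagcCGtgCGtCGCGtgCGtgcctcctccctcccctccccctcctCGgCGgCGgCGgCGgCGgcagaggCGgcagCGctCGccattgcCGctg

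The table gives no finer value at a start than the region around it. The Ppard window lay in the shortest such region, a stretch of 2388 bp between peaks with 7.96, 9.63 and 5.03 reads per kb at P14 and 7.96, 9.21 and 2.93 reads per kb at P1, so the ages overlapped. The second Esrrb start lay closest to a peak, with its window 267 bp from a peak upstream. The window of the first Esrrg start lay 390 bp from a peak, that of Ppard 761 bp and that of the first Nrf1 start 1306 bp. The peak nearest to the printed Ppargc1a window was 19124 bp away and carries no gene name.

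The windows were searched on both strands for response elements. AAGGTCA, the core of the ERR element, occurred in 0 of the 16 windows and in 4.72% of all windows. The longer TCAAGGTCA, which contains that core, occurred in 0 of the 16 and in 0.423% of all windows. The PPAR element, 2 copies of AGGTCA with 1 base between them, occurred in 0 of the 16 and in 0.0396% of all windows. The NRF1 element, GCGCA and then GCGC with 1 base between them, which has CpG sites of its own, occurred in 4.6% of all windows and, among these genes, at 1 place in the Ppara window, where it reads on both strands. A match is a description of the letters and not of binding.

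Of the 103 peaks, 99 had enough reads to be tested. In edgeR's quasi-likelihood test, with 0.05 as the threshold on the adjusted p, 2 were lower at P14 and 0 were higher. This is 2.02% of the 99 tested, against 2.55% of all 96749 tested peaks, of which 2.44% were lower and 0.105% higher. An unadjusted p under 0.05 was found for 6 of the 99, or 6.06%, against 7.59% of all peaks. DESeq2 called 3 lower and 0 higher, against 3.17% of all peaks lower. Signs were split evenly, with 49 positive and 50 negative changes. The median log2 change was 0.00, with quartiles at -0.16 and 0.24, and over all peaks it was -0.01, with quartiles at -0.22 and 0.24. The peaks of these regulators were called no more often than peaks elsewhere.

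**Figure D1:**
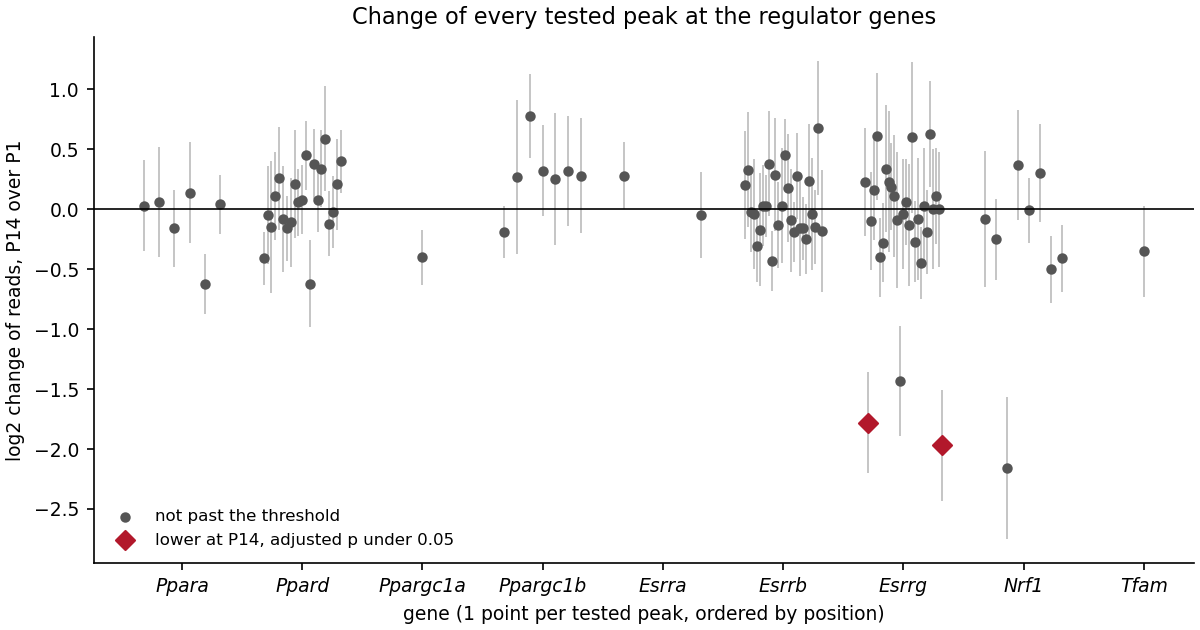
Log2 change in reads (P14 over P1) of each of the 99 tested peaks, grouped by gene and ordered by position, with the SE as a bar and diamonds for the 2 peaks past the threshold. Nearly all points lie within 1 of 0 on the log2 scale, and the 4 below -1 are 3 peaks at Esrrg and 1 at Nrf1.

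Large changes were few and all negative. A log2 change beyond 1 was found for 4 of the 99 peaks, or 4.04%, all below -1, against 6.27% of all peaks in either direction. CPM at P14 lay below CPM at P1 without overlap in 6 of the 99 peaks, or 6.06%, and above it in 2, or 2.02%, against 7.1% and 4.77% of all peaks. The 6 were 3 peaks at Esrrg and 1 each at Ppara, Ppard and Nrf1, and the 2 were at Ppargc1b and Esrrg.

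Among the receptors for fatty acids, no peak passed the test. Ppara, the main PPAR of fatty acid oxidation in heart and liver (ENSMUSG00000022383), had 6 peaks, all inside its RefSeq span on chromosome 15 (85734910 to 85806851). Its smallest p was at 85797494 to 85798459, with 113, 56 and 31 reads at P14 and 44, 54 and 39 reads at P1. In CPM these were 15.7, 14.5 and 11.2 at P14 and 22.7, 24.4 and 17.9 at P1, so the P14 libraries lay below the P1 libraries without overlap. The log2 change was -0.62 (SE 0.25, adjusted p = 0.361 in edgeR's quasi-likelihood test). The neighbouring peak at 85800636, which held the most reads of the gene, averaged 18.3 ± 2.83 CPM at P14 and 18.0 ± 3.4 CPM at P1 (SD, n = 3 each). All other Ppara peaks had log2 changes of at most 0.16 either way.

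Ppard, the most widely expressed PPAR (ENSMUSG00000002250), had 22 peaks at a span of 68.7 kb on chromosome 17, and only 2.24% of genes in the table had as many. Of its 21 tested peaks, 12 had a positive and 9 a negative log2 change, between -0.62 and 0.59. The widest, 3180 bp at 28227677 to 28230856, lay upstream of the gene, is also assigned to Def6 and held the most reads. It had 30.2, 28.1 and 30.7 CPM at P14 and 49.0, 33.5 and 35.8 CPM at P1, so P14 lay below P1 without overlap. Its log2 change of -0.41 (SE 0.22) had an adjusted p of 0.862 in edgeR's test. The peak closest to the start, at 28231009, averaged 6.06 ± 1.47 CPM at P14 and 6.21 ± 2.26 CPM at P1 (SD, n = 3 each).

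Pparg, the PPAR of fat cell formation, had no listed peak in its span of 129.5 kb on chromosome 6 (115360879 to 115490404). The table covers the span with 2 unnamed stretches between peaks. The first, of 63295 bp, held 220, 412 and 335 reads at P14 and 351, 384 and 364 reads at P1. That is 3.48, 6.51 and 5.29 reads per kb at P14 and 5.55, 6.07 and 5.75 reads per kb at P1, and the ages overlapped. An interval of 547 bp between the 2 stretches, with 199 bases of the window of the third Pparg start, was not analysed here. Such intervals, of 25 to 2754 bp, also lie in the spans of Ppard, Ppargc1a, Ppargc1b, Esrra, Esrrb, Esrrg and Nrf1. The peak counts per gene therefore cover listed regions only. The first Pparg window was the most CpG-rich of the 16, with 44 CpG, and the third held 2.

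No named peak of the PGC-1 genes passed the test. Ppargc1a (ENSMUSG00000029167) encodes PGC-1 alpha, the coactivator induced by exercise, fasting and cold, and has a RefSeq span of 661.6 kb on chromosome 5 (51454249 to 52115853). It had 1 named peak, at 51472552 to 51474701, which held 140, 100 and 70 reads at P14 and 64, 57 and 74 reads at P1. Its CPM were 19.5, 26.0 and 25.3 at P14 and 33.0, 25.8 and 34.0 at P1. P1 replicate 2 lay within the P14 range, and both other P1 libraries lay above it. The log2 change of -0.40 (SE 0.23) had an adjusted p of 0.913 in edgeR's test. A further 12 peaks in the span carry no gene name and are given under the other observations.

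Ppargc1b (ENSMUSG00000033871) encodes PGC-1 beta, a coactivator of the same receptors, and had 7 peaks on chromosome 18, a number that 16.2% of genes in the table reach, of which 6 had a positive log2 change. The peak at 61307051 to 61308172 had 76, 31 and 27 reads at P14 and 11, 14 and 10 reads at P1. Its CPM were 10.6, 8.05 and 9.75 at P14 and 5.67, 6.33 and 4.59 at P1, so P14 lay above P1 without overlap. The log2 change of 0.78 was the highest of the 99, with an SE of 0.35 and, in edgeR's test, an adjusted p of 0.54. With libraries scaled to the reads between peaks it was 2.01 with an adjusted p of 0.0369, and it was then 1 of 4 of the 99 peaks called higher, against 7.47% of all peaks. The peak with the most reads, at 61297994, averaged 24.2 ± 1.78 CPM at P14 and 27.5 ± 3.74 CPM at P1 (SD, n = 3 each), a log2 change of -0.19. P1 replicate 1 had 0 reads in the peak at 61306215, where the other P1 libraries had 9 and 10.

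The oestrogen-related receptor genes held both calls, each at Esrrg. Esrrg (ENSMUSG00000026610) encodes the ERR that, in mouse, is needed in the newborn heart for the turn to oxidative metabolism, and had 29 peaks along 606.4 kb of chromosome 1, with 27 tested. Only 1.19% of genes in the table had as many. The peak at 188199142 to 188200025, far downstream in the gene, held 15, 19 and 14 reads at P14 and 52, 24 and 16 reads at P1. In CPM these were 2.09, 4.93 and 5.06 at P14 and 26.8, 10.8 and 7.35 at P1. P14 lay below P1 without overlap, and P1 replicate 1 was far above the other P1 libraries. The peak fell 3.92-fold (log2 change -1.97, SE 0.46, adjusted p = 0.0306 in edgeR's test). Without P1 replicate 1 the log2 change was -1.25 with an adjusted p of 0.213. Without P14 replicate 1 it was -1.54 with an adjusted p of 0.258. It was -2.20 without P14 replicate 2 (adjusted p = 0.0513), -2.16 without P14 replicate 3 (adjusted p = 0.0503) and -2.16 without P1 replicate 2 (adjusted p = 0.0514), and the call held without P1 replicate 3 (-2.30, adjusted p = 0.0367). With libraries scaled to the reads between peaks the log2 change was -0.84 with an adjusted p of 0.177.

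The other called Esrrg peak, at 187624891 to 187625559, lay 16.22 kb downstream of the first start. It held 16, 19 and 6 reads at P14 and 27, 19 and 21 reads at P1, or 2.23, 4.93 and 2.17 CPM at P14 and 13.9, 8.59 and 9.64 CPM at P1. P14 again lay below P1 without overlap. The peak fell 3.45-fold (log2 change -1.78, SE 0.42, adjusted p = 0.0329 in edgeR's test). It passed without P14 replicate 2 (log2 change -2.26, adjusted p = 0.0399). It did not pass without P14 replicate 1 (-1.50, adjusted p = 0.256) or 3 (-1.64, adjusted p = 0.0889), or without P1 replicate 1 (-1.54, adjusted p = 0.0972), 2 (-1.92, adjusted p = 0.0601) or 3 (-1.85, adjusted p = 0.0725). With libraries scaled to the reads between peaks the log2 change was -0.64 with an adjusted p of 0.304.

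**Figure D2:**
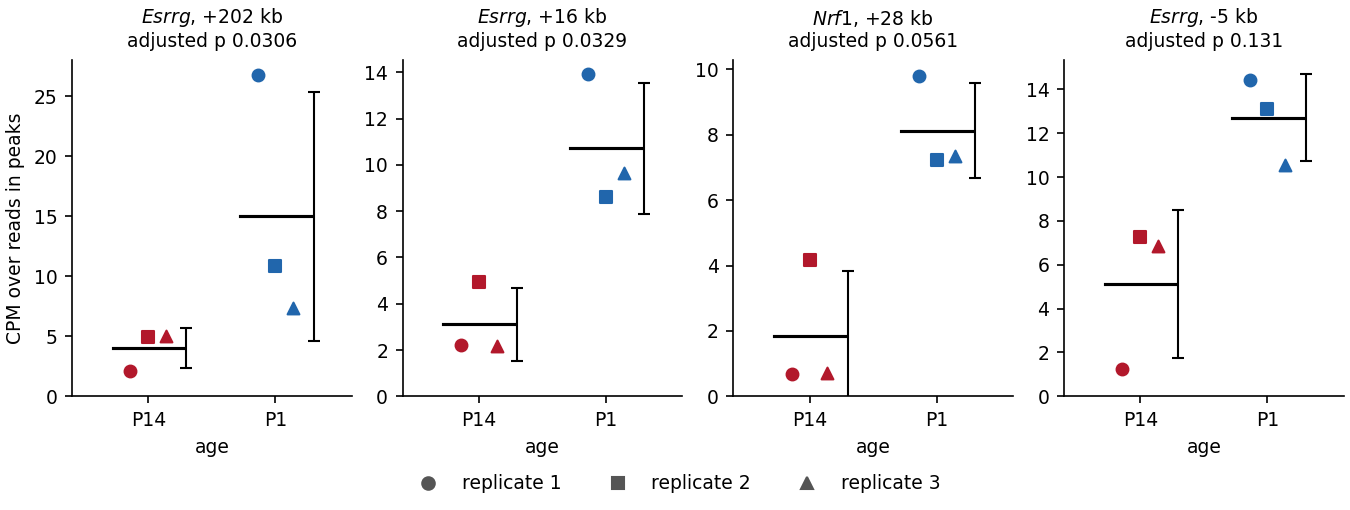
CPM over reads in peaks in each library, P14 on the left and P1 on the right of each panel, for the 4 peaks with the smallest p, titled by gene and distance from the nearest RefSeq start. Points are replicates, lines are means and bars are SD, drawn down to 0 at most. P14 lies below P1 in all 4 panels, and P1 replicate 1 is the highest library in each.

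The third Esrrg peak with a log2 change below -1, at 187992209 to 187993250, did not pass and lay 5.1 kb upstream of the last RefSeq start of the gene. It held 9, 28 and 19 reads at P14 and 28, 29 and 23 reads at P1, a log2 change of -1.43 (SE 0.46, adjusted p = 0.131 in edgeR's test). In CPM all P14 libraries lay below all P1 libraries. The peak nearest to the first start, at 187607374, averaged 7.70 ± 2.41 CPM at P14 and 6.29 ± 4.11 CPM at P1 (SD, n = 3 each). The peak with the most reads, at 188072423, averaged 9.44 ± 3.18 CPM at P14 and 13.3 ± 1.6 CPM at P1. Of the 27 tested Esrrg peaks, 12 had a positive and 15 a negative log2 change, with a median of 0.00 and a maximum of 0.63.

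**Figure D3:**
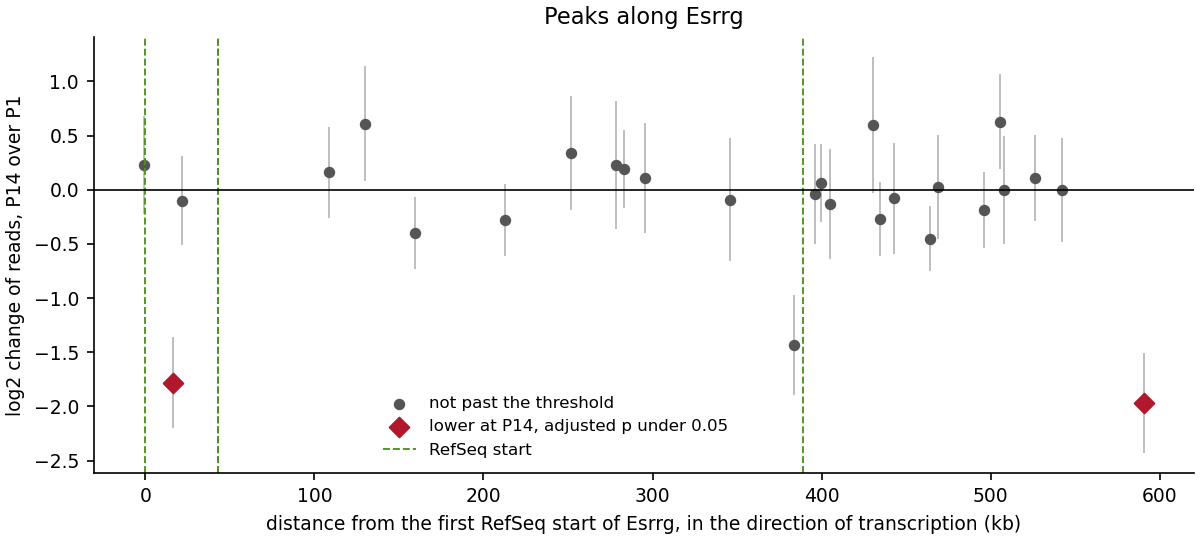
Log2 change (P14 over P1, with SE) of the 27 tested Esrrg peaks against the distance from the first RefSeq start in kb, with the 4 RefSeq starts as dashed lines, of which 2 nearly coincide. The 3 low peaks lie 16.2, 383.7 and 590.6 kb from that start, apart from each other, and their neighbours lie near 0.

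Esrrb (ENSMUSG00000021255), the ERR best known from pluripotent stem cells, had 27 peaks along 160.5 kb of chromosome 12, with 26 tested and none called. Their log2 changes lay between -0.43 and 0.68, with 12 positive and 14 negative. The peak with the most reads, at 86434937 to 86436565, had 17.7, 15.8 and 11.9 CPM at P14 and 24.8, 21.2 and 16.5 CPM at P1, a log2 change of -0.43 (SE 0.25, adjusted p = 0.947 in edgeR's test). The ages overlapped in this peak. The peak upstream of the second start, at 86419099 to 86421127, averaged 17.2 ± 4.46 CPM at P14 and 17.0 ± 2.65 CPM at P1 (SD, n = 3 each).

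Esrra (ENSMUSG00000024955), the ERR that PGC-1 alpha itself induces, had 2 peaks in its short span of 11.1 kb on chromosome 19. The one at 6911738 to 6913355 is also assigned to Prdx5 and had 20.3, 19.5 and 10.8 CPM at P14 and 14.9, 15.8 and 11.9 CPM at P1. The ages overlapped, and the log2 change was 0.28 (SE 0.28, adjusted p = 1.0 in edgeR's test). The peak at 6913531 held 53, 22 and 27 reads at P14 and 20, 14 and 15 reads at P1, a log2 change of -0.05.

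Nrf1 (ENSMUSG00000058440) had 8 peaks at a span of 105.5 kb on chromosome 6, 1 of them upstream of the gene, and 6 of the 8 had a negative log2 change. The peak at 30104276 to 30104947 held 5, 16 and 2 reads at P14 and 19, 16 and 16 reads at P1. In CPM these were 0.696, 4.16 and 0.723 at P14 and 9.80, 7.23 and 7.35 at P1, so P14 lay below P1 without overlap. The log2 change of -2.16 was the lowest of the 99 (SE 0.59), and its adjusted p of 0.0561 in edgeR's test was just outside the threshold. DESeq2 gave an adjusted p of 0.0363. In edgeR it was 0.0388 without P14 replicate 2 (log2 change -3.45), 0.371 without P14 replicate 1 (-1.60) and 0.197 without P14 replicate 3 (-1.87), and between 0.136 and 0.138 without each P1 library. Scaled to the reads between peaks, the log2 change was -1.10 with an adjusted p of 0.122. The peak with the most reads, at 30150968, averaged 18.5 ± 6.5 CPM at P14 and 25.4 ± 7.82 CPM at P1 (SD, n = 3 each). The peak nearest to the first start, at 30045699, held 17, 20 and 9 reads at P14 and 2, 11 and 11 reads at P1.

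Tfam (ENSMUSG00000003923), which packages and transcribes mitochondrial DNA, had 1 peak of 570 bp on chromosome 10 (71229544 to 71230113). It held 38, 23 and 17 reads at P14 and 19, 14 and 13 reads at P1. In CPM these were 5.29, 5.97 and 6.14 at P14 and 9.80, 6.33 and 5.97 at P1, and the ages overlapped. The log2 change was -0.35 (SE 0.38, adjusted p = 1.0 in edgeR's test).

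P1 replicate 1 was the highest P1 library in 82.3% of the 2363 peaks lower at P14 across the genome, against 37.0% of peaks not called.

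Summed over its peaks, none of the 9 genes passed the test, against 2.84% of 17688 genes (0.498% higher and 2.35% lower). The smallest p was that of Nrf1, with 89.1, 89.3 and 89.5 CPM over reads in named peaks at P14 and 102.9, 99.97 and 122.5 CPM at P1. P14 lay below P1 without overlap, as for 9.32% of all genes, and the log2 change was -0.28 (SE 0.14, adjusted p = 0.43 in edgeR's test). Ppargc1b had 74.45, 73.95 and 78.75 CPM at P14 and 56.52, 73.54 and 73.14 CPM at P1. P14 lay narrowly above P1 without overlap, as for 7.1% of all genes, with a log2 change of 0.16 (SE 0.16, adjusted p = 0.859). In all other genes described here the ages overlapped in these sums. The overlap depends on the measure: with CPM over all peaks, per kb of tested peak, Ppargc1b overlapped. By that measure P14 lay below P1 without overlap at Esrrg as well as Nrf1.

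The sums of the other genes gave log2 changes of -0.38 for Ppargc1a, -0.32 for Tfam, -0.17 for Esrrg, -0.15 for Ppara, 0.00 for Esrrb, 0.05 for Ppard and 0.19 for Esrra. Scaled to the reads between peaks, all 9 were positive, and the sums of Ppard (1.28, adjusted p = 0.048), Ppargc1b (1.33, adjusted p = 0.0479) and Esrra (1.42, adjusted p = 0.0441) passed edgeR's test, as did 33.5% of all genes upward. The direction of these sums therefore depends on whether peaks are compared with other peaks or with the rest of the genome.

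Per length, the level over peaks was of the same order in all 9 genes. At P14 it was 11.0 ± 1.66 CPM per kb of peak for Ppargc1a, 10.6 ± 1.06 for Ppara, 10.2 ± 0.79 for Tfam, 9.92 ± 1.46 for Esrra, 9.15 ± 1.17 for Ppard, 9.01 ± 0.35 for Nrf1, 8.65 ± 0.194 for Ppargc1b, 8.13 ± 0.43 for Esrrb and 7.36 ± 0.745 for Esrrg (SD, n = 3). Neighbours in that order overlapped in their libraries, except Ppargc1b and Esrrb. At P1 the highest were Ppargc1a at 14.4 ± 2.09 and Tfam at 12.9 ± 3.71, and the lowest were Esrrb at 8.33 ± 0.634 and Ppargc1b at 7.88 ± 0.966 (SD, n = 3). CpG content was not corrected for, so these levels do not rank methylation.

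**Figure D4:**
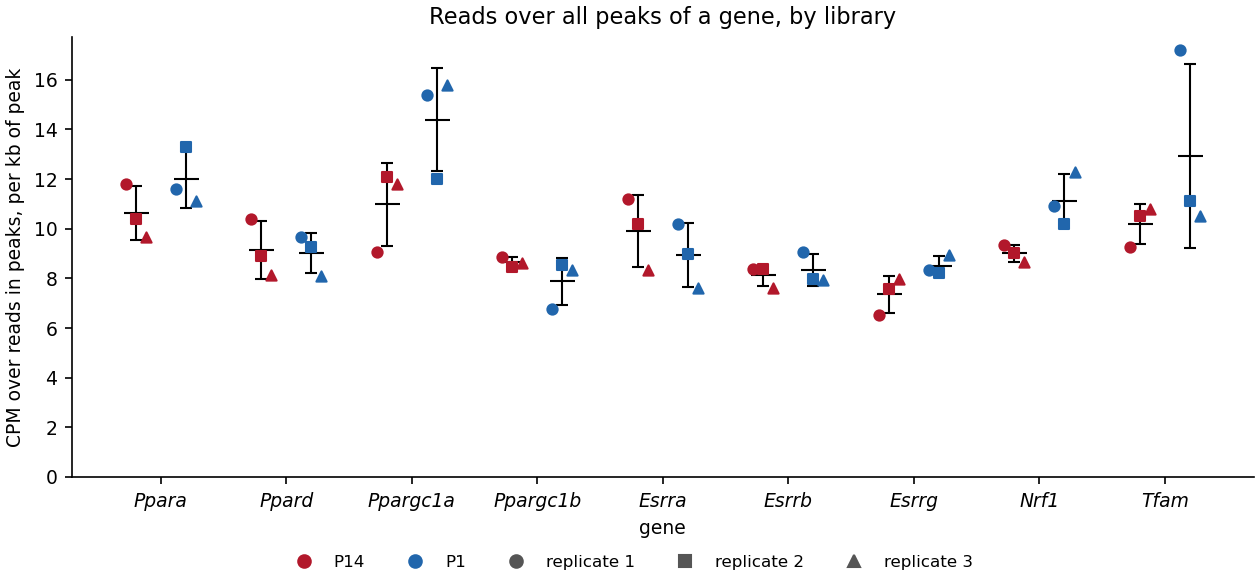
CPM over reads in peaks per kb of peak, over the tested peaks of each gene, in each library, with P14 left of P1 and bars for mean and SD (n = 3). The P14 libraries lie below the P1 libraries without overlap at Esrrg and Nrf1, and elsewhere the ages overlap.

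A comparison that needs no scaling sets each peak against the stretches between peaks that border it, within a library. Over the 94 peaks with such a stretch, the median ratio of the density of reads in a peak to that in its bordering stretches was 4.19, 2.67 and 2.63 at P14 and 1.6, 2.05 and 1.79 at P1. Over all peaks the medians were 4.74, 3.02 and 2.76 at P14 and 1.72, 2.09 and 1.97 at P1. P14 lay above P1 without overlap in 41 of the 94, or 43.6%, against 43.1% of all peaks, so these genes shared the rise in contrast of the whole capture. Whether that rise comes from the tissue or from the capture of each library was not tested.

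Per gene, the density over bordering stretches was higher at P14 than at P1 without overlap in all 9, as in 66.4% of 18003 genes. It was highest at P14 for Ppargc1a, with 13.2, 5.91 and 4.91 at P14 and 3.25, 3.13 and 4.37 at P1. It was lowest at P14 for Ppard, with 3.85, 2.37 and 2.3 at P14 and 1.83, 1.83 and 1.64 at P1. P14 replicate 1 was the highest library for every gene.

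**Figure D5:**
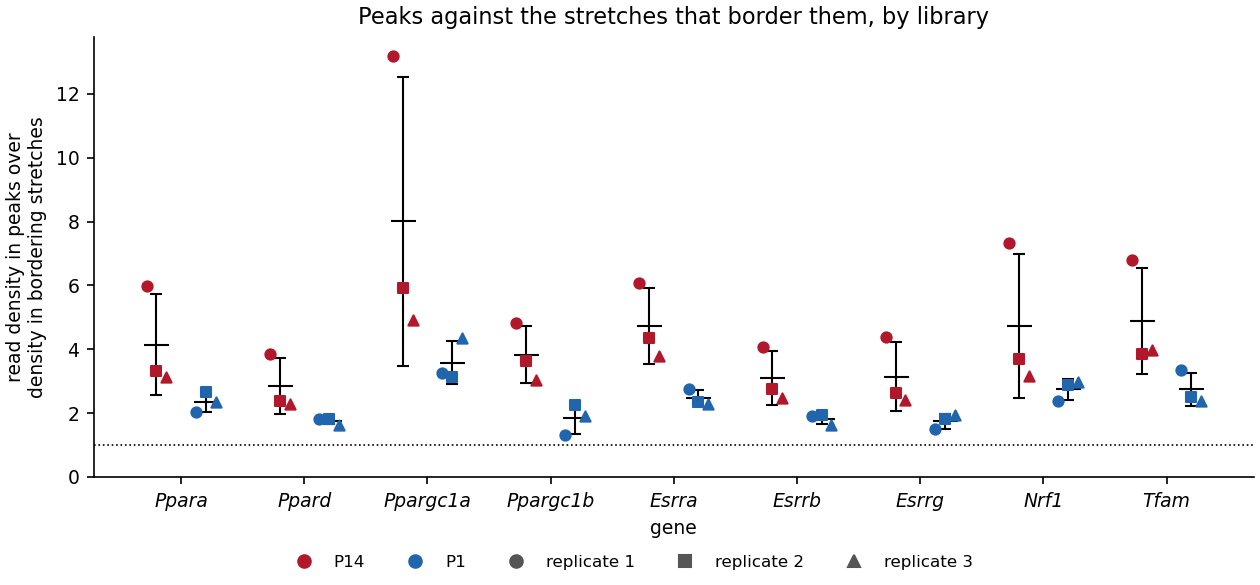
Read density in the peaks of a gene divided by the density in the stretches that border them, for each library, with P14 left of P1 and bars for mean and SD (n = 3). The dotted line marks equal density, and P14 replicate 1 is the highest point of every gene.

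Against that rise, 2 of the 94 peaks, or 2.13%, were lower at P14 without overlap, as were 1.96% of all peaks. They were the Nrf1 peak at 30104276, with a ratio of 0.657, 2.19 and 0.355 at P14 and 2.8, 2.67 and 2.57 at P1, and the Esrrg peak at 187992209, with 0.812, 2.43 and 2.28 at P14 and 2.54, 3.09 and 2.45 at P1. Neither had passed the test over all peaks. The 2 called Esrrg peaks overlapped between the ages by this measure. The ratio at 188199142 was 1.39, 1.63 and 1.55 at P14 and 5.15, 2.21 and 1.53 at P1, and at 187624891 it was 3.53, 3.53 and 1.43 at P14 and 5.6, 3.83 and 3.33 at P1.

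Among the 3 lists of genes that work with these regulators, every called peak was lower at P14 in edgeR's test. The same direction held for 2363 of the 2465 called peaks of the genome. Among heterodimer partners and coregulators, 25 of 26 genes were named in the table, and 4 of 136 tested peaks were lower, or 2.94%, against 2.44% of all peaks, with a median log2 change of -0.07, and 7.35% had an unadjusted p under 0.05, against 7.59% of all peaks. They were 2 peaks at Nrip1, the corepressor RIP140, 1 at Ncor1, the nuclear receptor corepressor, and 1 at Gabpb1, a subunit of the GABP factor that activates respiratory genes. The stronger Nrip1 peak, on chromosome 16 at 76362151 to 76363834, held 37, 25 and 24 reads at P14 and 37, 48 and 47 reads at P1. It averaged 6.77 ± 1.78 CPM at P14 and 20.8 ± 1.48 CPM at P1 (SD, n = 3 each), a log2 change of -1.67 (SE 0.28, adjusted p = 0.0239 in edgeR's test). Without P1 replicate 1 its log2 change was -1.70 with an adjusted p of 0.032. The other Nrip1 peak, at 76339337, then had -1.38 with 0.0848, the Ncor1 peak -2.01 with 0.151 and the Gabpb1 peak -1.46 with 0.35.

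Among targets in fatty acid use, 26 of 32 genes were named. An unadjusted p under 0.05 was found for 14.5% of the tested peaks, against 7.59% of all peaks. The median log2 change was -0.08, and 4 of 62 tested peaks were lower, or 6.45%, against 2.44% of all peaks. Besides Hadha and Acadl, enzymes of beta-oxidation, they lay at Cd36, the fatty acid transporter, and Pdk4, the kinase that blocks pyruvate oxidation. The Cd36 peak, on chromosome 5 at 17828494 to 17829116, held 3, 6 and 7 reads at P14 and 16, 16 and 15 reads at P1, a log2 change of -2.49 (SE 0.58, adjusted p = 0.0315 in edgeR's test). The Pdk4 peak, on chromosome 6 at 5488646 to 5489497, held 2, 15 and 13 reads at P14 and 24, 26 and 22 reads at P1, a log2 change of -2.15 (SE 0.57, adjusted p = 0.0475). Without P1 replicate 1 the log2 change was -1.81 for Hadha (adjusted p = 0.0336), -2.22 for Acadl (adjusted p = 0.0376), -2.41 for Cd36 (adjusted p = 0.0706) and -2.10 for Pdk4 (adjusted p = 0.0781).

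Among genes of respiration and mitochondrial DNA, 27 of 39 were named. An unadjusted p under 0.05 was found for 16.9% of the tested peaks, against 7.59% of all peaks. The median log2 change was -0.09, and 2 of 59 tested peaks were lower, or 3.39%, against 2.44% of all peaks. Both lay at Mfn1, which fuses mitochondria. The peak on chromosome 3 at 32532278 to 32533052 held 10, 10 and 4 reads at P14 and 44, 18 and 19 reads at P1, a log2 change of -2.85 (SE 0.48, adjusted p = 0.0239 in edgeR's test). Without P1 replicate 1 its log2 change was -2.19 with an adjusted p of 0.0482, while the other Mfn1 peak, at 32563999, had -2.21 with 0.0661. No peak of these 3 lists was higher at P14 in edgeR's test, and the share called over all peaks was 2.55%. Without P14 replicate 1 no peak of the genome passed, while the log2 change was -1.85 at the Hadha peak, against -2.04 with all libraries, -2.24 at Acadl, against -2.48, and -2.59 at the first Mfn1 peak, against -2.85. Summed over a gene's peaks, Gabpb1, Nrip1, Acadl, Cd36 and Mfn1 were lower at P14 in edgeR's test, and Polrmt, the mitochondrial RNA polymerase, was higher. Polrmt had 234, 135 and 124 CPM at P14 and 102, 110 and 82.1 CPM at P1, a log2 change of 0.77 (SE 0.19, adjusted p = 0.0329). Its adjusted p was 0.12 without P1 replicate 1 (log2 change 0.80) and 0.275 without P14 replicate 1 (log2 change 0.41). Over all genes, 2.35% of sums were lower and 0.498% higher. The sum of Acadl had a log2 change of -1.88 without P1 replicate 1 (adjusted p = 0.0488) and -1.75 without P14 replicate 1 (adjusted p = 0.0441), and of these 6 sums it alone passed in both settings. Scaled to the reads between peaks, the sums of Gabpb1 (0.25), Nrip1 (0.46) and Mfn1 (0.09) changed sign.

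Of the cell type markers, only those of heart muscle cells had called peaks: 10 of 75 were lower, or 13.3%, against 2.44% of all peaks, 9 at Ryr2 and 1 at Ttn. The call held without P1 replicate 1 for 1 of the 10, the Ryr2 peak at 11751799 (adjusted p = 0.0482), and the others had adjusted p from 0.0685 to 0.284, with log2 changes from -2.64 to -1.23 over the 10. Of the 75 peaks, 22, or 29.3%, had an unadjusted p under 0.05, and log2 changes ran from -2.86 to 1.58. P14 lay below P1 without overlap in 18 of them and above P1 in 13, or 17.3%, against 4.77% of all peaks. Summed over a gene's peaks, Ryr2 was lower (log2 change -1.25, adjusted p = 0.0021 in edgeR's test). The sum of Myh7 was higher (0.75, adjusted p = 0.0206, and 0.111 without P1 replicate 1). The markers of endothelial cells (41 tested peaks), fibroblasts (23) and blood cells (19) had 0 called in edgeR's test, with unadjusted p under 0.05 for 0, 0 and 1 of them. Their median log2 changes were -0.12 for heart muscle, 0.01 for endothelial, -0.15 for fibroblast and 0.14 for blood cell markers, beside 0.00 for the regulator genes. The part of cell mix in the Esrrg calls was not tested.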

How the data were processed

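MBD-seq libraries of mouse ventricle, 3 at P14 and 3 at P1, were analysed from 1 deposited table of whole-number read counts per region, which the authors had not scaled. Per the submitters' processing notes, reads were processed on GRCm38 (mm10) with tools that include BWA, MACS, bedtools and, in version 3.2.4, edgeR, at settings not given in the sources used here. Of 221524 table lines, 7567 list a region again under another gene. Peaks were told from the stretches between them by gene names, alternating borders and, for 56202 regions, read density, which gave the same answer for 90.9% of the regions settled otherwise.

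Counts over 101221 peaks were tested with edgeR 4.0.16 in R 4.3.3 (quasi-likelihood F test, TMM factors, default expression filter with all reads of a library as its size, Benjamini-Hochberg adjustment over all tested peaks, threshold 0.05), and likewise sums per gene symbol. The SE is the log2 change divided by the square root of F. DESeq2 1.42.0 was an alternative. Whether the libraries come from separate animals is not stated beyond the term biological replicate, and p-values measure the spread between these libraries. The members, gene lists, tests and scaling over peaks were chosen with earlier results of these data known. The text names every called peak of a regulator gene, its peaks with the smallest p and the most reads and the one nearest to a start within 5 kb, and, in each other list, up to 6 called genes. The third low Esrrg peak, the peaks without overlap between ages and the list genes with called sums were named after their values were seen. Starts, spans and sequences are RefSeq's (GRCm38.p6). Distances from a start run from the middle of a peak, and distances of a promoter window run from its edge to the nearest edge of a peak. Table starts count from 0 and were raised by 1. Cell lists hold 12, 8, 8 and 8 genes, of which 11, 7, 4 and 5 are named in the table.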

Additional observations from a re-analysis of the deposited data

How the results depend on the processing

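Called peaks and sums at P14 rested on the scaling and on single libraries. The 2 lower regulator peaks were 0 with all regions in the fit, scaled to the reads between peaks, scaled to reads in peaks without TMM, with the share of reads in peaks as covariate, and without replicate 1 of both ages, and 0 to 2 with 1 library left out. The 10 lower peaks of the pathway lists became 0, 0, 5, 0 and 4 under the same settings, and all 2363 lower peaks became 0, 51, 707, 0 and 236 (1349 with gene-named regions only). With 1 library left out, the lower counts ran from 0 to 8 for the lists and from 0 to 1392 for all peaks. The 102 higher peaks became 0 with all regions, 7230 scaled to the reads between peaks, 0 with the covariate and 35 without both replicates 1, and 0 to 75 with 1 library left out. Scaled to the reads between peaks, 4 regulator peaks were higher (2 at Esrrb, 1 each at Ppard and Ppargc1b) and 16 of the lists, and DESeq2 called 1 list peak higher, at Polrmt. Of gene sums, 88 were higher and 415 lower. These became 5934 and 39 scaled to the reads between peaks, 0 and 0 with the covariate, 22 and 90 without both replicates 1, and the lower ones 174 without TMM, with 3 to 137 higher and 46 to 456 lower when 1 library was left out. Scaled to the reads between peaks, 3 regulator sums were higher, and those of Ppara (1.07), Ppargc1a (0.75), Esrrg (0.97), Nrf1 (0.91) and Tfam (0.84) changed sign. The sum of Esrrb, 0.00 in the main fit, was 1.19 in that setting and 0.12 without TMM. With the covariate, the sums of Ppard (-0.1) and Esrrg (0.04) and the Esrrg peak at 187992209 (0.08) changed sign. The causes were not tested.

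The labels number replicates 1 to 3 at both ages, but same-numbered libraries did not deviate together (r = -0.049, -0.046 and 0.02 over peaks). With so few reads per peak, this check cannot decide whether the numbers pair samples. With a replicate block, 0 peaks were higher and 0 lower, 0 of them of regulators or lists, and 27 gene sums were higher and 85 lower. Not every library correlated best with its own number. Depth limits the precision of single peaks, with median counts of 14 to 48 reads across the libraries.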

Other observations

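The RefSeq span of Ppargc1a holds 12 further peaks without a gene name in the table, beside the 1 named peak. The gene lies on the minus strand, and all 12 lie upstream of its printed promoter window. Of the 12, 10 were tested and 2 were lower at P14, against 2.44% of all peaks. Both were looked at after the values were seen. The peak on chromosome 5 at 52107187 to 52108082 lay near the upstream end of the span. It held 18, 17 and 11 reads at P14 and 36, 23 and 24 reads at P1. Its log2 change was -1.91 (SE 0.38, adjusted p = 0.0239 in edgeR's quasi-likelihood test). The peak at 51631211 to 51632304 held 28, 24 and 17 reads at P14 and 25, 39 and 34 reads at P1, a log2 change of -1.55 (SE 0.32, adjusted p = 0.0241). Without P1 replicate 1 the adjusted p was 0.0577 for the first of these peaks and 0.0355 for the second, and without P14 replicate 1 it was 0.207 for each, with log2 changes of -1.62 and -1.29. Scaled to the reads between peaks, the log2 change of the first was -0.76 (adjusted p = 0.218) and that of the second -0.43 (adjusted p = 0.458). A further peak at 51685734 held 17, 29 and 24 reads at P14 and 48, 28 and 27 reads at P1, with a log2 change of -1.53 (SE 0.41) and an adjusted p of 0.052. The largest rise was at 51793323, with 23, 17 and 15 reads at P14 and 0, 5 and 2 reads at P1. Its log2 change was 1.91 (SE 0.7, adjusted p = 0.249 in edgeR's test). The remaining tested peaks without a name had log2 changes between -0.58 and 0.29.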
